A study of Homo sapiens with 6 samples.

Results

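MYC, its dimerization partner MAX and their relatives were followed in colorectal cancer cells after siRNA against the long noncoding RNA GLCC1. The network was taken as 10 genes chosen by symbol (MYC, MYCN, MAX, MXD1, MXD3, MXD4, MXI1, MNT, MLX and MLXIP) out of 56638 symbols in the count files. All 10 passed the filter on low counts and were tested. RNA was sequenced in 3 libraries of cells given a nonspecific control siRNA and in 3 of cells given siRNA against lncRNA-AF339830, the name the labels give to GLCC1. The labels name the cells SW480 and the study's methods name DLD-1 for this experiment. Both are established lines from human colorectal adenocarcinoma, no other genetic change is labelled, and the genotype field reads siRNA1 in every library. Groups follow the sample titles, with which the source names and the siRNA named in the genotype field agree. The library names may point the other way, since they carry a code starting with AF on the control libraries and the letters NC on the GLCC1 siRNA libraries. If AF stands for AF339830 and NC for the control, every difference given here keeps its size and turns its sign. No row of the files was named GLCC1 or AF339830, so the knockdown could not be read from the counts. The labels do not say whether the 3 libraries of a group came from separate cultures, so p-values measure only the spread between these libraries, which may be technical.

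MYC is a transcription factor of the basic helix-loop-helix leucine zipper family. It binds DNA at the E-box only as a dimer with MAX, and many of its targets serve ribosome synthesis, nucleotide synthesis and glycolysis. MXD1, MXD3, MXD4, MXI1 and MNT compete for MAX, occupy the same E-boxes and recruit SIN3 and histone deacetylases, which represses transcription. MLX is a MAX-like partner that pairs with the glucose-responsive factors MLXIP (MondoA) and MLXIPL (ChREBP), and also with MNT, MXD1 and MXD4. In colorectal cancer MYC is a well-known target of the Wnt pathway.

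Because every dimer of the network reads the E-box, the promoters of the members were searched for its letters, CACGTG, which read the same on both strands. RefSeq promoter windows of build GRCh38.p14, from 250 bases before to 50 after a gene's start, were matched for 9 members, in 12 windows. No window was matched for MYC, so its promoter was not searched. The motif stood in 3 of the 12 windows (25.0%), those of MXD4, MNT and MLX, against 7.26% of all 35116 windows. A match describes letters only and is not a binding site shown in these cells. The 3 sites are shown because they hold the letters that the network's own dimers read. The motif is in capitals, within 30 bases, at position -238 from the annotated start of MXD4 (chr4:2262330-2262359, minus strand), -193 of MNT (chr17:2401236-2401265, minus strand) and -50 of MLX (chr17:42567038-42567067, plus strand).
MXD4: gggccgggccacCACGTGctgttgctaagc
MNT: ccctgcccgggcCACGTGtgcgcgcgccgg
MLX: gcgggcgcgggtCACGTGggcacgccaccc

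Gene counts summed to between 11948790 and 19042516 per library. GLCC1 siRNA replicate 2 had the fewest and stood apart from its group. The chi-square per degree of freedom between it and the other GLCC1 siRNA libraries was 18.1 and 19.0, against 3.28 between those 2 and 1.93 to 4.16 among control libraries. Results are therefore also given without it where it changed them. Without it 9920 of 22470 genes tested had an adjusted p under 0.05, against 7293 of 23074 with all 6 libraries. Lower adjusted p values in that setting are thus not particular to the members. The share of read pairs falling on no annotated gene was 9.82% to 10.15% in control libraries and 10.96% to 12.7% in GLCC1 siRNA libraries, and its part in the results was not tested. Of 7 epithelial markers, 6 were between 73.5 CPM (counts per 1000000 counts of the TMM-scaled library) and 3768 CPM in every library and KRT20 was under 1 CPM. EPCAM, KRT8, KRT18 and CDH1 fell in the GLCC1 siRNA libraries, EPCAM with an edgeR adjusted p of 0.045. CDX2, VIL1 and KRT20 did not pass an adjusted p of 0.05. VIL1 lay higher in all 3 GLCC1 siRNA libraries (log2 fold change 0.21, edgeR adjusted p = 0.067). Of the markers of other cells, PTPRC, PECAM1 and DCN had no count in any library, ALB was at most 0.12 CPM and COL1A1 was 11.8 to 14.99 CPM in control and 6.68 to 7.94 CPM in GLCC1 siRNA libraries.

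In the comparison of GLCC1 siRNA with control siRNA, 7 of the 10 members had an adjusted p under 0.05 in edgeR. MYC, MXD1, MXD4 and MLX were lower with GLCC1 siRNA, and MYCN, MXD3 and MNT were higher. MAX, MXI1 and MLXIP did not pass. Of all 23074 genes tested 31.6% passed, 14.9% upwards and 16.7% downwards. Of the 11666 genes averaging 5 CPM or more, 49.4% passed, 20.7% upwards and 28.7% downwards, and of the 9 members at that level 2 rose and 4 fell. Nothing is read from these counts about the members as a set, and the results concern single genes. In 7 of the 10 members the libraries of both groups did not overlap, as in 46.3% of all genes tested. In bulk RNA, less RNA in every cell and a loss in some of the cells cannot be told apart.

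**Figure D1:**
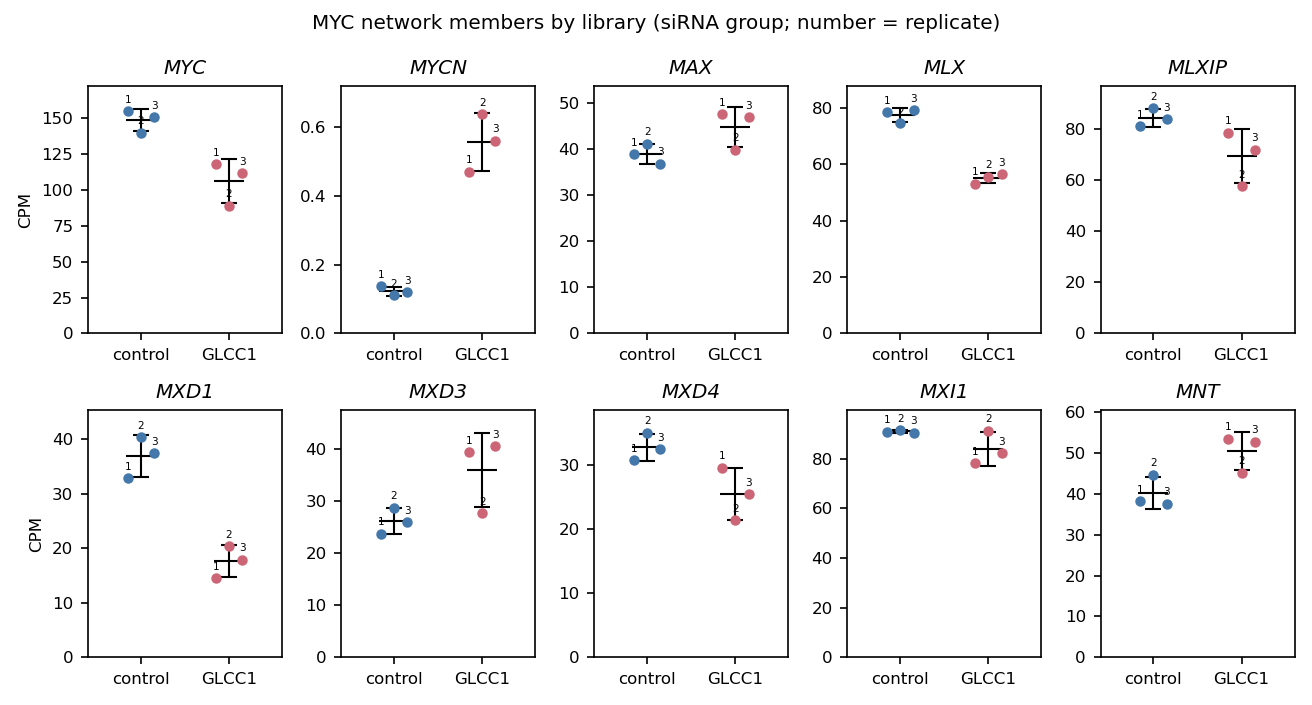
CPM (counts per 1000000, scaled by TMM factors) of the 10 members in each library, control siRNA in blue and GLCC1 siRNA in red. Points are libraries marked with their replicate number, bars are the mean and SD of 3 libraries, and every axis starts at 0; MYC, MXD1, MXD4, MLX and MLXIP lie lower in all 3 GLCC1 siRNA libraries, and MYCN and MNT higher.

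MYC, the oncogenic activator of the network, is annotated on the plus strand of chromosome 8 (hg19, 128747680 to 128755197), with 3 exons in its canonical transcript. It had 155, 140.1 and 151 CPM in the control libraries and 118, 89.1 and 112 CPM in the GLCC1 siRNA libraries. All 3 GLCC1 siRNA libraries were below all 3 controls, and replicate 2 was the lowest. The mean was 149 ± 7.76 CPM (SD, n = 3) against 106 ± 15.4 CPM (SD, n = 3), a log2 fold change of -0.48 (SE 0.10, adjusted p = 0.0030). Without GLCC1 siRNA replicate 2 the log2 fold change was -0.36 (SE 0.06, adjusted p = 3.8e-07). Scaling by library totals alone gave the same size (adjusted p = 0.016). Over the settings tried, the adjusted p of MYC was between 3.8e-07 and 0.022. Exons of MYC share 194 bases with CASC11, a noncoding gene on the opposite strand that had 0 to 10 counts per library.

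MYCN, the paralogue of MYC typical of neural tumours, was close to absent. It had 2 counts in each control library and 9, 8 and 10 counts in the GLCC1 siRNA libraries, so all of the latter were higher. The 27 counts against 6 correspond to a depth-corrected ratio of 4.47, with a 95% interval from 1.81 to 13.2 that covers counting error only (exact binomial). The edgeR test gave adjusted p = 0.011, with a range of 0.0080 to 0.049 over the settings. The highest level, 0.636 CPM in GLCC1 siRNA replicate 2, was far below the lowest level of MYC. MYCL, the third relative of MYC and not among the 10 genes, fell by 0.65 on the log2 scale (SE 0.17, adjusted p = 0.0082) from a control mean of 6.84 ± 1.14 CPM (SD, n = 3). The call of MYCL was lost without control replicate 3 (-0.54, adjusted p = 0.060).

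MAX, the partner MYC needs to bind DNA and a shared partner of the antagonists, did not fall with MYC. It had 38.8, 41.1 and 36.8 CPM in control and 47.5, 39.8 and 46.9 CPM in GLCC1 siRNA libraries. GLCC1 siRNA replicate 2 lay among the controls and the other 2 lay above them. The log2 fold change was 0.20 (SE 0.10, adjusted p = 0.14), which did not pass. It was 0.28 (SE 0.07, adjusted p = 5.8e-04) without GLCC1 siRNA replicate 2 and 0.33 (adjusted p = 0.021) when scaled by library totals alone. Exons of MAX overlap those of FNTB on the opposite strand over 822 bases, 13.1% of their length, and FNTB had 126 to 159 counts in control and 70 to 134 in GLCC1 siRNA libraries.

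Among the antagonists, MXD1 showed the largest change. MXD1, which is known to rise as cells leave the cycle and differentiate, had 32.8, 40.3 and 37.3 CPM in control libraries. In the GLCC1 siRNA libraries it had 14.5, 20.4 and 17.9 CPM, all far below the lowest control. Its log2 fold change was -1.08 (SE 0.13, adjusted p = 3.2e-05), the largest in size among the 9 members with at least 5 CPM. With each library left out in turn it stayed between -1.19 and -0.95 and passed each time.

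MXD3, an antagonist known from S phase and proliferating cells, moved the other way. It had 23.8, 28.8 and 26.0 CPM in control and 39.5, 27.8 and 40.6 CPM in GLCC1 siRNA libraries. GLCC1 siRNA replicate 2 lay within the control range, whereas the other 2 were above it. MXD3 rose by a log2 fold change of 0.46 (SE 0.14, adjusted p = 0.019), and 0.61 (SE 0.08, adjusted p = 2.9e-09) without GLCC1 siRNA replicate 2. The call was lost without control replicate 1 or 3 and without GLCC1 siRNA replicate 1 or 3 (adjusted p between 0.071 and 0.096). Of the exons of MXD3, 19.5% of the length is shared with RAB24 on the same strand and 24.2% with PRELID1 on the opposite strand, and read pairs that fit both MXD3 and RAB24 are counted for neither in union mode. Whether this held for PRELID1 depends on the strand setting, which is not given in the sources used here.

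MXD4 had 30.9, 35.1 and 32.5 CPM in control and 29.6, 21.5 and 25.5 CPM in GLCC1 siRNA libraries. The groups did not overlap, by a narrow margin at replicate 1. MXD4 had a log2 fold change of -0.36 (SE 0.12, adjusted p = 0.036), and the call rested on single libraries. It was lost without control replicate 1, 2 or 3 and without GLCC1 siRNA replicate 3 (adjusted p between 0.061 and 0.15), and when scaled by library totals alone (-0.23, adjusted p = 0.15).

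MXI1 had the highest CPM of the antagonists, though its rank per length depends on the length used. It had 90.8, 91.4 and 90.5 CPM in the control libraries and 78.0, 91.1 and 82.1 CPM in the GLCC1 siRNA libraries. GLCC1 siRNA replicate 2 lay at the level of the controls and the other 2 lay below. MXI1 had a log2 fold change of -0.12 (SE 0.09, adjusted p = 0.33), -0.18 without GLCC1 siRNA replicate 2 (adjusted p = 0.0089) and 0.0033 when scaled by library totals alone (adjusted p = 0.98), so its direction depended on the scaling.

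MNT, the antagonist known to be expressed in most cells whether or not they divide, had 38.1, 44.6 and 37.5 CPM in control and 53.4, 45.1 and 52.7 CPM in GLCC1 siRNA libraries. All GLCC1 siRNA libraries were above the controls, replicate 2 by less than 1 CPM. The log2 fold change was 0.33 (SE 0.10, adjusted p = 0.028), and 0.40 (SE 0.07, adjusted p = 3.5e-06) without GLCC1 siRNA replicate 2. The call was lost without control replicate 1 or 3 and without GLCC1 siRNA replicate 1 or 3 (adjusted p between 0.077 and 0.14). The promoters of MNT and MXD4 printed above both hold the E-box, and MNT rose whereas MXD4 fell.

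MLX, the MAX-like partner, had the smallest standard error of the members that fell. It had 78.4, 74.4 and 79.2 CPM in control and 53.1, 55.5 and 56.4 CPM in GLCC1 siRNA libraries. All 3 GLCC1 siRNA libraries were well below the lowest control, and replicate 2 lay between the other 2. The log2 fold change was -0.49 (SE 0.08, adjusted p = 5.5e-04), and it passed under every scaling, filter and library left out. Its exons overlap those of PSMC3IP on the opposite strand over 18.2% of their length, and PSMC3IP had 188 to 227 counts in control and 136 to 211 in GLCC1 siRNA libraries.

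MLXIP, which carries glucose sensing into the MLX dimer, had 81.1, 88.002 and 83.7 CPM in control and 78.4, 57.6 and 71.8 CPM in GLCC1 siRNA libraries. The groups did not overlap, and replicate 2 was the lowest. The log2 fold change was -0.28 (SE 0.11, adjusted p = 0.067), which did not pass. It passed without GLCC1 siRNA replicate 1 (-0.37, adjusted p = 0.028), without GLCC1 siRNA replicate 2 (-0.16, adjusted p = 0.023) and with a filter of 1 count in any library (-0.28, adjusted p = 0.027). MLXIPL, the other glucose-responsive partner of MLX, had a log2 fold change of -0.33 (SE 0.12, adjusted p = 0.057) and no overlap between the groups.

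**Figure D2:**
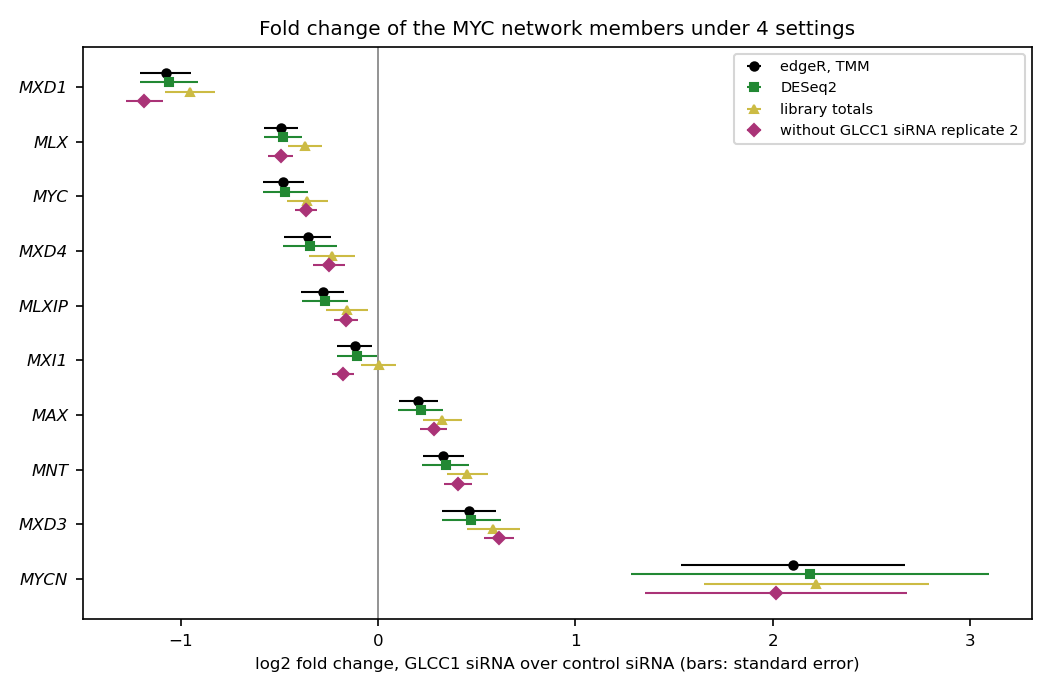
Log2 fold change of each member (x axis, GLCC1 siRNA over control siRNA, bars are standard errors) under edgeR with TMM scaling, DESeq2, library totals as the only scaling, and without GLCC1 siRNA replicate 2. MXD1 is lowest at about -1.08, MXI1 lies near 0 and crosses it with library totals, and MYCN has the widest bars because it rests on 2 to 10 counts per library.

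Levels of different genes were compared as CPM per kilobase of exon (GENCODE 44 exons on hg19, all transcripts of a gene joined). In control libraries MYC was highest with 24.4 ± 1.27 (SD, n = 3), followed by MLX with 18.2 ± 0.596 (SD, n = 3) and MXI1 with 15.4 ± 0.0831 (SD, n = 3). These 3 genes did not overlap in any control library. MAX, MLXIP, MXD1 and MXD3 followed at means of 6.22, 6.06, 5.80 and 5.52, and each overlapped the next in the order. MXD4 and MNT came next with 4.78 and 4.61 and overlapped each other and MXD3, and MYCN was last with 0.0445. In GLCC1 siRNA libraries MYC was still highest with 17.4 ± 2.51 (SD, n = 3), but its range of 14.6 to 19.4 overlapped that of MXI1, 13.2 to 15.4. MXD3 moved from rank 7 to rank 4 and MXD1 from rank 6 to rank 9. The order depends on the length used. On the length of the canonical transcript, which gives MXD3 1067 bases in place of 4743, MXD3 had a control mean of 24.5 in place of 5.52.

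The 5 antagonists together had nearly the same level in both groups. Their summed level was 34.4, 38.1 and 35.7 CPM per kilobase in control and 34.3, 32.8 and 35.1 in GLCC1 siRNA libraries, and the groups overlapped. The mean was 36.1 in control and 34.0 in GLCC1 siRNA libraries. On canonical transcript lengths it was 74.0 and 77.8, again with overlap. What differed was the makeup of the sum. MXD1 made up 14.99% to 16.7% of the sum in control and 6.68% to 9.78% in GLCC1 siRNA libraries. MNT made up 12.1% to 13.5% against 15.8% to 17.9%, and MXD3 14.6% to 15.9% against 17.8% to 24.4%. MXD4 made up 13.0% to 13.4% against 9.53% to 12.6%, and MXI1 40.6% to 44.7% against 38.6% to 47.1%. These shares depend on the length used. On canonical transcript lengths MXD3 made up 31.8% to 34.3% in control and 36.8% to 46.3% in GLCC1 siRNA libraries, and it exceeded MXI1 in control replicate 2 and in GLCC1 siRNA replicates 1 and 3.

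Relative to MYC, both MAX and the summed antagonists stood higher in the GLCC1 siRNA libraries. Not every antagonist did, since MXD1 fell further than MYC (log2 fold change -1.08 against -0.48). The summed antagonists were 1.36, 1.66 and 1.45 times the level of MYC in control and 1.77, 2.25 and 1.91 times in GLCC1 siRNA libraries. Control replicate 2 was the highest control and GLCC1 siRNA replicate 2 the highest of all, and the groups did not overlap. MAX was 0.244, 0.286 and 0.238 times the level of MYC in control and 0.393, 0.437 and 0.409 times in GLCC1 siRNA libraries, again without overlap. These ratios describe messenger RNA in each library and were not tested, and the scaling between libraries cancels in them. On canonical transcript lengths the mean ratio of antagonists to MYC was 1.86 in control and 2.74 in GLCC1 siRNA libraries. In CPM, MXD1, MXD3 and MXD4 together were 0.563 to 0.744 times MYC in control libraries. With GLCC1 siRNA they were 0.707 to 0.781 times MYC, so the groups overlapped. Per kilobase, on either length, they did not overlap.

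The genes whose values ran closest to those of MYC over the 6 libraries were CTU2, SYS1, PDPR, GRWD1 and SLC29A3. Likeness was measured as the Euclidean distance between log2 CPM values centred on each gene's mean, among the 10377 genes averaging 10 CPM or more, and was 0.10 to 0.12 for these 5. CTU2 had a log2 fold change of -0.49 (SE 0.12) and GRWD1 one of -0.50 (SE 0.11). Fold changes near that of MYC follow from this choice of genes and are not a separate result. The member nearest to MYC was MXD4, at a distance of 0.30 and rank 637, followed by MLXIP at rank 772 and MLX at rank 1063. MNT and MXD3 were the farthest of the members above 10 CPM, at ranks 8115 and 8802.

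Genes known to be activated by MLXIP or MLXIPL with MLX were listed next, since MLX was lower. Of the 5 genes, 4 were tested and PKLR was too low to test. TXNIP, ARRDC4 and KLF10 rose and PFKFB3 fell. TXNIP, which limits glucose uptake and is the best known MLXIP target, had 59.9, 55.1 and 64.9 CPM in control and 174, 204 and 184 CPM in GLCC1 siRNA libraries, without overlap. Its log2 fold change was 1.64 (SE 0.10, adjusted p = 7.9e-08). ARRDC4, a relative of TXNIP, had 42.1, 39.4 and 40.3 CPM in control and 43.9, 62.7 and 52.0 CPM in GLCC1 siRNA libraries, so replicate 1 was hardly above the controls. Its log2 fold change was 0.38 (SE 0.12, adjusted p = 0.027), and the call of ARRDC4 was lost without control replicate 1, 2 or 3 (adjusted p between 0.065 and 0.11). KLF10, a zinc finger repressor, had a log2 fold change of 0.73 (SE 0.08, adjusted p = 1.6e-05). PFKFB3, which makes the allosteric activator of phosphofructokinase, had one of -0.76 (SE 0.09, adjusted p = 4.0e-05). All 4 tested genes passed, 3 upwards and 1 downwards, beside 49.4% of genes averaging 5 CPM or more. Nothing is read from so few genes about the list, and a link to the lower MLX was not tested.

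The promoter windows of ARRDC4 (chr15:97960481-97960510, plus strand) and PFKFB3 (chr10:6202812-6202841, plus strand) hold the letters CACGTG. The 2 windows matched for TXNIP do not, and no window was matched for KLF10. Only these exact letters within the window were searched, so TXNIP may hold another form of the site that MLX dimers read. Both sites are shown, in GRCh38.p14 from RefSeq with the motif in capitals, because their genes moved in opposite directions.
ARRDC4: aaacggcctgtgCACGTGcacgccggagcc
PFKFB3: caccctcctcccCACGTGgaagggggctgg

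**Figure D3:**
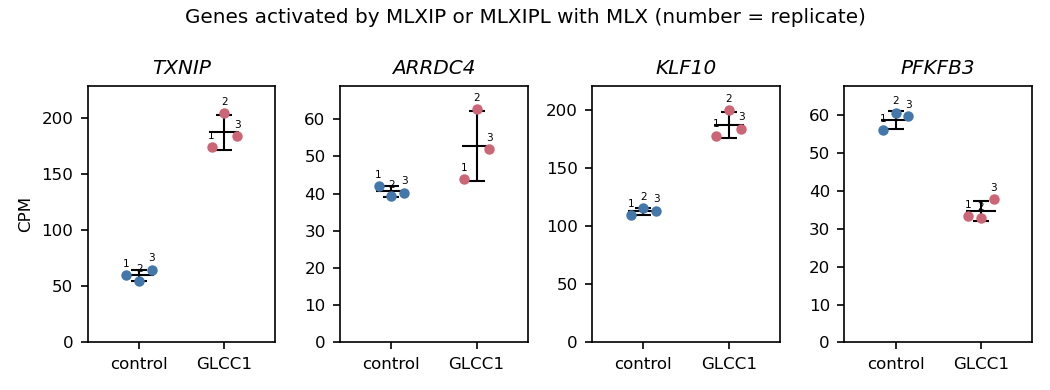
CPM of TXNIP, ARRDC4, KLF10 and PFKFB3 in each library, with the mean and SD of 3 libraries and axes from 0. TXNIP, ARRDC4 and KLF10 lie higher and PFKFB3 lower in all 3 GLCC1 siRNA libraries, with ARRDC4 in GLCC1 siRNA replicate 1 at 43.9 CPM closest to the controls.

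Of 39 genes known to be activated by MYC, 14 fell, 5 rose and 20 did not pass. That is 35.9% down and 12.8% up, beside 28.7% and 20.7% of the genes averaging 5 CPM or more. Of the list, CCND2 and PPAN averaged less than that and did not pass. The median log2 fold change of the list was -0.25. Over all genes tested it was 0.03, but these include many low genes. The median of genes averaging 5 CPM or more was not taken, so nothing is read from this difference. Among those that fell was LDHA, the lactate dehydrogenase, which the study selected on this RNA sequencing, c-Myc binding and known c-Myc targets together. LDHA had a log2 fold change of -1.79 (SE 0.08). DDX18, a nucleolar helicase, had one of -1.42 (SE 0.10) and TERT, the telomerase catalytic subunit, one of -1.38 (SE 0.20). Those that rose were NOLC1 with 1.48 (SE 0.08), E2F1, an activator of S phase genes, with 1.22 (SE 0.11), POLR1B, TFRC and HSPD1, whose call was lost without control replicate 1 or 2 (adjusted p of HSPD1 0.051 and 0.11). NPM1 (-0.03), NOP56 (0.01) and CDK4 (0.03) were among the genes that did not pass. The E-box stood in 17 of 41 promoter windows of the list (41.5%), among them that of LDHA, against 7.26% of all windows. It also stood in 3 of 10 windows (30.0%) of genes repressed by MYC and 3 of 7 (42.9%) of the MLX list.

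Of 11 genes known to be repressed by MYC, 9 were tested. CDKN2C and THBS1 rose, whereas CDKN1A, GADD45A and NDRG1 fell. That is 22.2% up and 33.3% down, beside 20.7% and 28.7% of genes averaging 5 CPM or more. CDKN2B, GADD45G and PDGFRB averaged under 5 CPM and did not pass, so the list and this background differ in level. CDKN1A, the cell cycle inhibitor p21, had a mean of 284 ± 24.1 CPM (SD, n = 3) in control and 195 ± 25.7 CPM (SD, n = 3) with GLCC1 siRNA, and its log2 fold change was -0.55 (SE 0.10, adjusted p = 9.99e-04). CDKN2C, another inhibitor of cyclin-dependent kinases, had one of 0.96 (SE 0.11). CDKN1B had one of -0.02 (SE 0.08), and the median of the list was -0.11. The call of GADD45A (-0.35, adjusted p = 0.031) was lost without control replicate 1, 2 or 3 and without GLCC1 siRNA replicate 1 or 2 (adjusted p between 0.053 and 0.16), and when scaled by library totals alone (adjusted p = 0.13). NDRG1 (-0.65) lost its call without GLCC1 siRNA replicate 2 (adjusted p = 0.15).

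Of 15 cofactors of MYC, 5 fell and 2 rose, with a median log2 fold change of -0.15. The shares, 33.3% down and 13.3% up, lie near the 28.7% and 20.7% of genes averaging 5 CPM or more. The largest fall was that of RUVBL1, an ATPase of the TIP60 chromatin complex, from 169 ± 6.59 CPM (SD, n = 3) to 84.9 ± 3.71 CPM (SD, n = 3), a log2 fold change of -0.997 (SE 0.08, adjusted p = 1.1e-06). RUVBL2 (-0.42), WDR5 (-0.54), TRRAP (-0.28) and EP400 (-0.23) also fell, EP400 with an adjusted p of 0.040. CDK9, the elongation kinase, rose by 0.57 on the log2 scale (SE 0.10) and CREBBP by 0.23 (SE 0.08). The counts depended on single libraries. Without GLCC1 siRNA replicate 2, 5 cofactors rose and 6 fell, without control replicate 2 or 3 only 2 fell, and 2 fell when scaled by library totals alone.

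Of 10 corepressor genes that serve the antagonists, 3 rose, 2 fell and 5 did not pass, with a median of 0.05. In all 5 of 10 passed, as did 49.4% of genes averaging 5 CPM or more. HDAC1, a deacetylase of the SIN3 complex, rose by 0.54 on the log2 scale (SE 0.08). The other deacetylase listed, HDAC2, had a log2 fold change of 0.05 (SE 0.09, adjusted p = 0.73) and did not pass. SAP30 rose by 0.72 (SE 0.09) and RBBP7 by 0.24 (SE 0.07, adjusted p = 0.023). The call of RBBP7 was lost without control replicate 1, 2 or 3 (adjusted p between 0.089 and 0.10). SUDS3, a further SIN3 subunit, had a log2 fold change of -0.75 (SE 0.09) and RBBP4 one of -0.67 (SE 0.08). SIN3A itself had one of 0.13 (SE 0.08, adjusted p = 0.21) and SIN3B one of -0.17 (SE 0.10, adjusted p = 0.20).

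**Figure D4:**
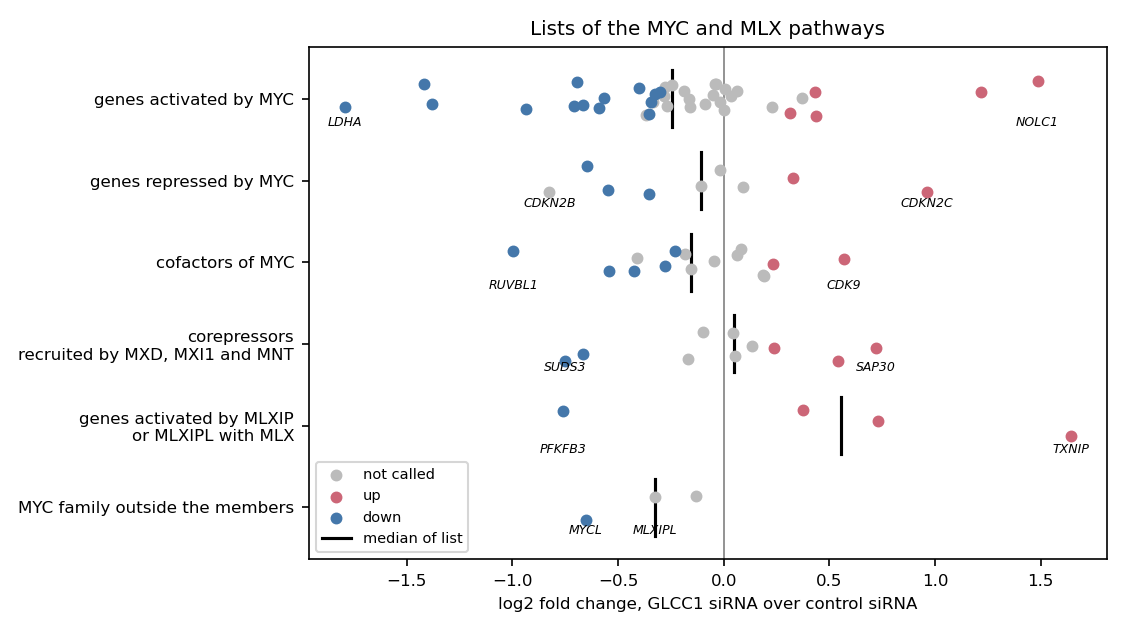
Log2 fold change (x axis, GLCC1 siRNA over control siRNA) of each tested gene in 6 lists of the MYC and MLX pathways, coloured by whether it rose, fell or did not pass an adjusted p of 0.05 in edgeR, with the list median as a line and 2 genes of each list named. Genes activated by MYC run from LDHA at -1.79 to NOLC1 at 1.48, and TXNIP at 1.64 is the highest of the MLX list.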

How the data were processed

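RNA was sequenced in 3 control siRNA and 3 GLCC1 siRNA libraries. The authors mapped paired-end reads to hg19 with TopHat2 2.0.11 on an Ensembl GRCh37 index and deposited unnormalized counts by gene symbol, made with HTSeq in union mode. The strand setting is not given in the sources used here. The tallies of pairs given to no gene, 30.0% to 30.9% of each file, were removed.

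Members and lists were chosen with earlier results of these data known. Genes whose summed counts stayed under 5 in both groups were removed, following the study's methods. Counts were scaled with TMM factors and compared by the robust quasi-likelihood test of edgeR 4.0.16 (R 4.3.3) with Benjamini-Hochberg adjustment. DESeq2 1.42.0, which the study used, was an alternative. With 3 libraries against 3, an exact permutation test of 1 gene cannot give a p under 0.1. On simulated counts edgeR recovered 199 of 200 genes changed 2-fold, with 12 false calls among 211, over 22244 genes. All changed genes averaged 5 CPM or more. The simulation does not cover smaller changes, such as those of most members, or genes as low as MYCN. Nor does it cover data in which 31.6% of genes pass. Genes named were the members, genes of the lists, and the 5 nearest to MYC. Of the lists, all genes but MYCL1 were in the files.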

Additional observations from a re-analysis of the deposited data

How the results depend on the processing

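The direction of the members' fold changes was kept in 128 of 129 alternative values, the exception being MXI1 with library totals as the only scaling. That scaling moved the median of all genes by 0.12 on the log2 scale and the share of calls that were upward from 47.0% to 62.9%. MYC, MXD1 and MLX passed under every alternative. With conditions read from the library names, the log2 fold change of MYC was 0.48. MYC ranged from -0.56 to -0.36 with each library left out. The replicate number as a block gave -0.49 for MYC and 6522 calls against 7293, and MNT no longer passed (adjusted p = 0.058). Same-numbered libraries correlated at -0.18, -0.32 and -0.01 in their deviations from the group means over 14875 genes. Of the 6 libraries, 0 correlated best with their own number. With 3 libraries per group, and GLCC1 siRNA replicate 2 apart from its group, these values cannot exclude a pairing. An adjusted p under 0.01 gave 4853 calls. It left 0 members called up, and 1 cofactor up and 2 down. Leaving out libraries gave 1 to 4 members up and 3 to 6 down, 0 to 3 further family genes down, 1 to 5 cofactors up and 2 to 6 down, and 0 to 2 noncoding neighbours up. Further family genes down were 2 with DESeq2 and 2 with a filter of 1 count in any library. Cofactors up were 1 with that filter and 1 with the replicate block, and cofactors down 2 with library totals. Noncoding neighbours up were 1 with DESeq2 size factors, 2 with library totals, 1 with the filter of 1 count and 1 with a filter of 10 counts in every library, which MYCN did not pass. The ratio of antagonists to MYC on canonical lengths, added after the data were seen, was 1.86 and 2.74 against 1.49 and 1.98. Causes of these changes were not tested. Of 208 counts over lists, 178 stayed within 1.5 times the value given. At 2 to 10 counts per library, depth limits what can be said of MYCN.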

Other observations

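The noncoding genes next to MYC did not fall with it. PVT1, a long noncoding RNA downstream of MYC, had 10.3, 11.1 and 11.4 CPM in control and 13.8, 16.2 and 12.2 CPM in GLCC1 siRNA libraries, without overlap. Its log2 fold change was 0.36 (SE 0.13, adjusted p = 0.052), which did not pass. CCAT1, a long noncoding RNA upstream of MYC that is known from colon cancer, had 16.0 to 17.5 CPM in control and 18.9 to 20.2 CPM with GLCC1 siRNA. Its log2 fold change was 0.21 (SE 0.10, adjusted p = 0.15), which did not pass either. CASC11 was too low to read, with at most 10 counts in a library. Without GLCC1 siRNA replicate 2, 2 of the 3 genes passed as higher. In that setting 9920 of all 22470 genes tested passed, against 7293 of 23074 with all libraries.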
